A study of Homo sapiens with 4 samples.

Results

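Tissue factor and plasminogen activator genes are 9 genes that start blood coagulation, restrain it, or turn plasminogen into plasmin. They were picked by name, with earlier results of these data known, so counts over them describe a chosen set. Every gene probe of the array whose gene name equals F3, TFPI, TFPI2, THBD, THBS1, PLAU, PLAUR, PLAT or SERPINE2 was used. This gave 12 probes of 34127, and 9 genes of the 27224 that had a usable probe on all 4 arrays. TFPI, THBS1 and PLAU each had 2 probes, and the other genes had 1. The measurements come from a study of atorvastatin (ATO), a statin that blocks HMG-CoA reductase, in human prostate cancer cell lines.

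RNA abundance was measured on 1-colour Agilent arrays in LNCaP, an androgen-dependent line derived from a lymph node metastasis, and PC3, an androgen-independent line derived from a bone metastasis. Both lines were grown in RPMI medium with 10% serum. The 4 groups were untreated LNCaP, LNCaP given 10 µM ATO for 24 h, untreated PC3, and PC3 given 10 µM ATO for 24 h. There was 1 array per group, so no difference within a line had a replicate check and no p-value was computed for it. No vehicle is named for the controls, which are labelled untreated, while the study's methods state that ATO was dissolved in DMSO. All 4 arrays lay on 1 slide and were scanned together, each at its own position, so position cannot be told apart from group.

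Tissue factor, encoded by F3, is the membrane receptor for factor VII that starts coagulation when cells are exposed to blood. Tissue factor pathway inhibitor (TFPI) restrains that step, and thrombomodulin (THBD) binds thrombin so that it activates protein C in place of clotting fibrinogen. On the cell surface, urokinase (PLAU) bound to its receptor (PLAUR) and tissue plasminogen activator (PLAT) cleave plasminogen to plasmin, which degrades fibrin and matrix, and protease nexin-1 (SERPINE2) inhibits these enzymes and thrombin. Tumour cells of many kinds express tissue factor and the urokinase system.

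Without treatment, 8 of the 9 genes were over 2-fold higher in PC3 than in LNCaP, where 20.6% of 15237 genes were, and TFPI was higher in LNCaP, where 19% were. After ATO, 5 genes were lower in PC3 by over 1.5-fold (F3, TFPI2, THBS1, PLAU and PLAT), where 10.3% of 13815 genes were. A further 2, TFPI and THBD, were higher, where 8.2% were, and PLAUR and SERPINE2 lay within 1.5-fold. In LNCaP, 4 genes gave a value and 0 passed 1.5-fold after ATO, where 4.75% of the 13739 genes with a value did. Of them, TFPI, THBS1 and SERPINE2 were well above background on both arrays. PLAUR was so on the untreated array only and gave no fold. F3, TFPI2, THBD, PLAU and PLAT were not well above background on either LNCaP array.

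The promoters of F3, TFPI2 and THBS1, which were lower in PC3 after ATO and held letters marked here, and of TFPI, which was higher, are shown to let a reader see those letters. Each is the 250 bases before the transcription start in the RefSeq annotation of GRCh38.p14, written along the gene's own strand. Capitals mark matches to TGANTCA (AP-1) or GGAATG (TEAD), searched on both strands.
F3, chr1:94541760-94542009, minus strand: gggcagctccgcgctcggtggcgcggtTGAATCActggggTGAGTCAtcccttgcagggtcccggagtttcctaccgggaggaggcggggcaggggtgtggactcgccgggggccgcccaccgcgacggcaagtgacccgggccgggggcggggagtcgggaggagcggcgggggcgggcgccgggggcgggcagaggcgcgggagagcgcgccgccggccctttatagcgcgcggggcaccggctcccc
TFPI2, chr7:93890754-93891003, minus strand: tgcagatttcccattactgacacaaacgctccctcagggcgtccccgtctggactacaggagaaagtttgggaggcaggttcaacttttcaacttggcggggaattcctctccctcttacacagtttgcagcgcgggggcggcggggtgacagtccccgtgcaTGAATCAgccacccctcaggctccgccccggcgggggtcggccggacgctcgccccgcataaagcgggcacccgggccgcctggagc
THBS1, chr15:39580829-39581078, plus strand: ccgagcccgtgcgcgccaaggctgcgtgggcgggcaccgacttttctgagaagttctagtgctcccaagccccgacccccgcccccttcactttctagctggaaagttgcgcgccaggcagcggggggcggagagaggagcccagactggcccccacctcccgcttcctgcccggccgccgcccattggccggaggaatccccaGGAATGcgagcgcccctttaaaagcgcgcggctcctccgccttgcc
TFPI, chr2:187554436-187554685, minus strand: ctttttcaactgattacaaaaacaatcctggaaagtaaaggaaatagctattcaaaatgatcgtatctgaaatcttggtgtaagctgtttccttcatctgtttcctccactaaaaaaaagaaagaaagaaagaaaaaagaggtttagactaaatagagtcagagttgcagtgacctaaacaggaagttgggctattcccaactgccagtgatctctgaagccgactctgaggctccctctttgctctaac
The F3 window held AP-1 letters 223 and 210 bases before the start, TFPI2 held them 87 bases before it, and THBS1 held TEAD letters 46 bases before it. The TFPI window held neither, and its GC content was 38.4%, against 78.0% for F3, 64.4% for TFPI2 and 69.6% for THBS1. Both windows of PLAU, also lower, held neither, at 46.8% and 68.8% GC. The PLAUR window, not printed, held AP-1 letters 186 bases before the start, and PLAUR lay within 1.5-fold after ATO. Because the printed windows were picked by direction and by letters, the contrast between them is no result.

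The promoter table held 7 of the 9 genes, in 9 windows. It lacked THBD, higher in PC3 after ATO, and PLAT, lower, so TFPI was the only higher gene with a window. AP-1 letters occurred in 3 of the 9 windows (F3, TFPI2 and PLAUR) and in 6.57% of all 35116 promoters of the table. TEAD letters occurred in 1 of the 9 windows and in 11.9% of all promoters. The letters GGGCGG (SP1) occurred in 6 windows (42.6% of all promoters), GCGNGGGCG (EGR), which can overlap them, in 4 (8.42%), and a CArG box (SRF) in 0 (1.16%). These counts describe letters only. A match is no site of binding, and SERPINE2 and PLAU each have 2 windows that were counted separately.

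The probes themselves fix what was measured. Each is 60 bases long, and the first 30 bases are given for the genes with 2 probes and for F3, with the hg18 position of the whole probe as the files state it. Exons were not annotated on that build.
F3, chr1:94767668-94767727, minus strand: cctaatatgctttacaatctgcactttaac
TFPI, brighter probe, chr2:188051651-188051710, minus strand: gccttctgcattcatgcatccatgttcttt
TFPI, second probe, chr2:188037253-188037312, minus strand: ctgctttgttcattctctgtattcaaaatt
THBS1, brighter probe, chr15:37676123-37676182, plus strand: aataagctgctctgccccttgtgctcagag
THBS1, second probe, chr15:37661838-37661897, plus strand: aagttccaagacctggtggatgctgtgcgg
PLAU, brighter probe, chr10:75347056-75347115, plus strand: ctgtgaccagcactgtctcagtttcacttt
PLAU, second probe, chr10:75344620-75344679, plus strand: tataacgatccccagtttggcacaagctgt
The probes of TFPI carry different RefSeq transcripts, NM_001032281 for the brighter and NM_006287 for the second. The second PLAU probe carries NM_001145031.

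The probes of the other genes were named by position only. TFPI2 was read at chr7:93354511-93354570 and THBD at chr20:22974807-22974866, both on the minus strand. PLAUR was read at chr19:48861338-48861397 and PLAT at chr8:42151969-42152028, both on the minus strand. The SERPINE2 probe lies at chr2:224548841-224550539 on the minus strand, a stretch longer than the probe itself.

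Levels are given as processed intensity in scanner units, which is not scaled between arrays. Ratios are log2 of ATO over control after each array was divided by the 75th percentile of its own probes (497, 533, 588 and 569 units for untreated LNCaP, ATO LNCaP, untreated PC3 and ATO PC3). The error of a level is the scanner's own estimate for a probe with 1 spot and the SD over spots for a probe with 10, so it covers the array and not the biology. The array error of a ratio combines those of its 2 arrays on the log2 scale. Repeated spots of a probe gave a median SD of 0.138 (log2) for a difference between single spots on the PC3 arrays and 0.139 on the LNCaP arrays. Between 48.5% and 52.9% of gene spots were well above background on each array, none was saturated, and the lowest intensity called well above background ran from 27.4 to 54.7 units.

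The labels of the lines were checked against marker genes. KLK3, the gene of prostate-specific antigen, read 65987 and 65646 units on the LNCaP arrays and lay under the background call in PC3. KLK2 followed KLK3 (9228 and 8743 units in LNCaP, under the call in PC3), while TMPRSS2 read 5793 and 6065 units in LNCaP and was above background in PC3 too, at 392 and 770. VIM, the intermediate filament vimentin, read 11670 and 12707 units in PC3, against 65.3 and 138 in LNCaP. CD44 and CAV1, also PC3 markers, were not well above background in LNCaP and read 7404 and 6414, and 12387 and 5019 units in PC3.

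**Figure D1:**
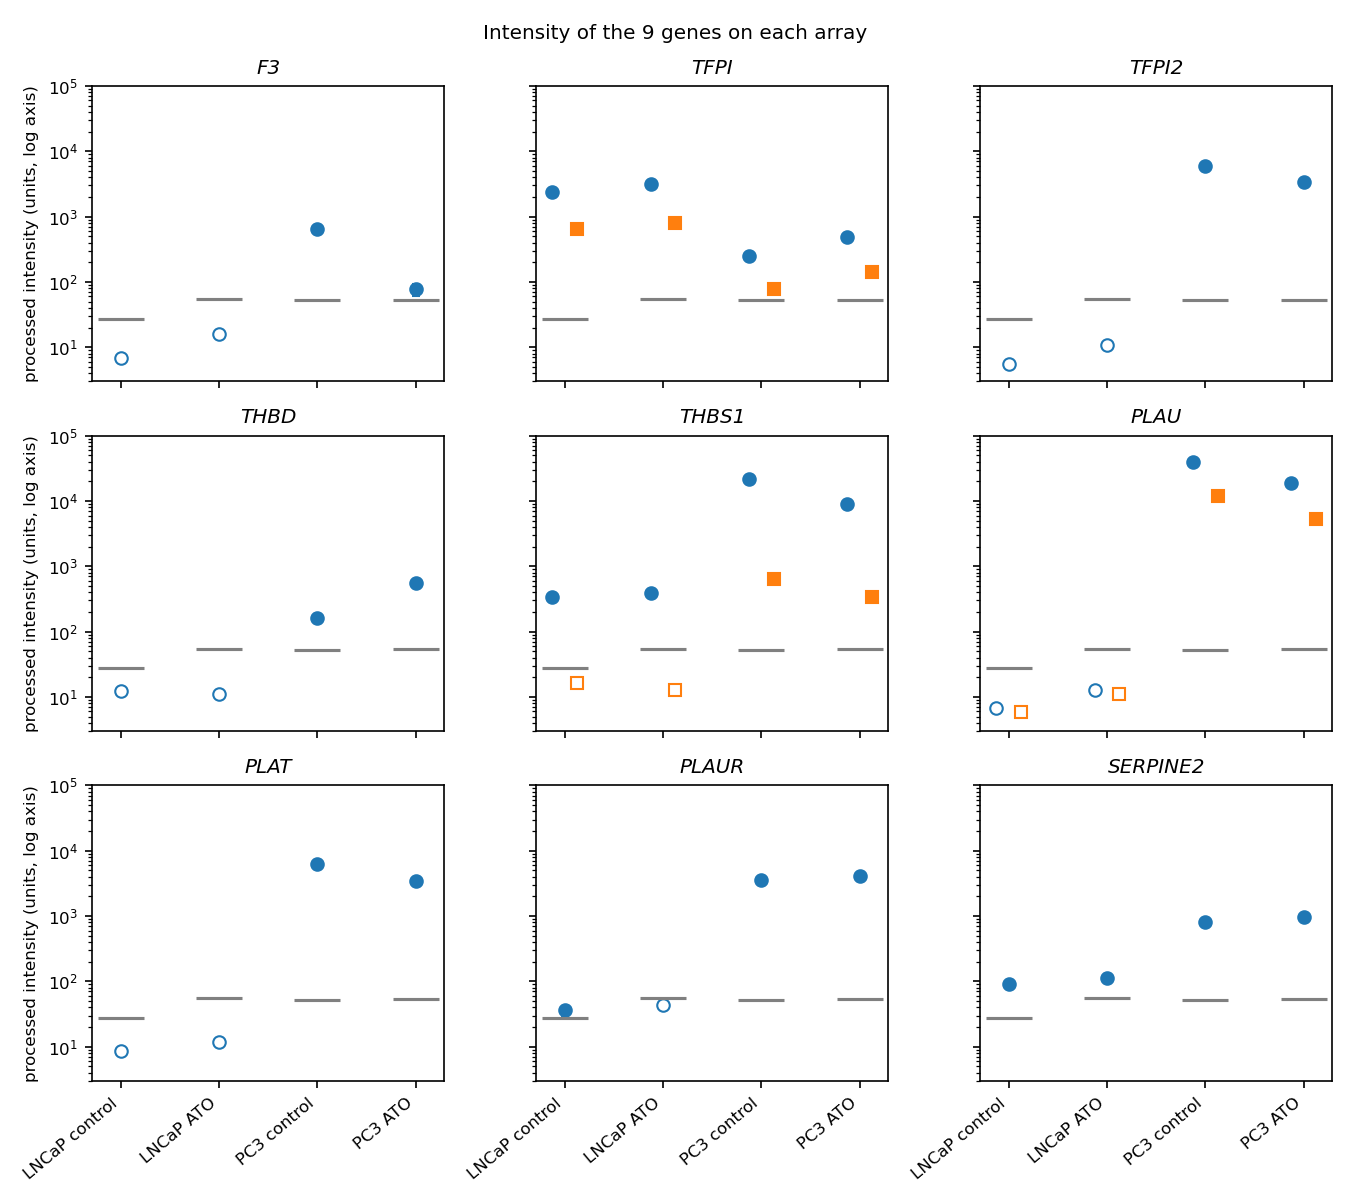
Processed intensity (scanner units, log axis) of each of the 12 probes on the 4 arrays, with circles for the brighter probe of a gene, squares for the second, filled symbols for probes well above background and open symbols for the rest; bars, mostly hidden by the symbols, show the array error and a grey dash the lowest intensity called well above background. F3 drops from 640 to 77.6 units between the PC3 arrays and TFPI is brightest in LNCaP.

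F3 read 640 ± 65.2 units on the untreated PC3 array and 77.6 ± 15.7 on the ATO array (error estimate of the scanner, 1 spot each). On the LNCaP arrays it read 6.75 units untreated and 16.2 with ATO, neither well above background. Only the untreated PC3 array was bright, and the ATO PC3 array lay close to the lowest intensity called well above background there, 53.8 units. The log2 ratio in PC3 was -3.00 (array error 0.33), or 7.98-fold lower, the lowest of all 12513 genes that were well above background on both PC3 arrays. Untreated PC3 was at least 19.8-fold higher than untreated LNCaP.

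TFPI, the inhibitor of the tissue factor complex, read 2398 ± 240 units in untreated LNCaP, 3158 ± 316 in ATO LNCaP, 253 ± 27.9 in untreated PC3 and 485 ± 49.9 in ATO PC3. It was well above background on all 4 arrays, and both LNCaP arrays were brighter than both PC3 arrays. The log2 ratio was 0.99 in PC3 (array error 0.22; 1.98-fold higher) and 0.30 in LNCaP (array error 0.20; 1.23-fold). The second probe read 641 ± 64.3, 804 ± 81.2, 78.0 ± 13.2 and 144 ± 18.1 units on the same arrays. It gave log2 ratios of 0.93 (array error 0.30) in PC3 and 0.23 (array error 0.21) in LNCaP, differing from the brighter probe by less than the array errors. The spot of the brighter probe lay in a bright local background on the ATO PC3 array, 136 units around the spot.

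TFPI2, an inhibitor of the same family that acts on plasmin, read 5922 ± 592 units in untreated PC3 and 3390 ± 339 in ATO PC3. On the LNCaP arrays it read 5.45 and 10.9 units, not well above background. PC3 alone gave a readable signal, and the ATO array was the lower. The log2 ratio in PC3 was -0.76 (array error 0.20), or 1.69-fold lower, and untreated PC3 was at least 183-fold higher than untreated LNCaP. TFPI and TFPI2 thus had ratios of opposite sign in PC3, and that of TFPI2 fell under 1.5-fold when arrays were scaled to their 50th percentile.

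THBD read 164 ± 19.9 units in untreated PC3 and 555 ± 56.6 in ATO PC3, against 12.5 and 11.2 units on the LNCaP arrays, which were not well above background. The ATO PC3 array was the brightest of the 4. Its log2 ratio in PC3 was 1.81 (array error 0.23), or 3.49-fold higher, and 24 of the 12513 genes had a higher ratio. Untreated PC3 was at least 5.07-fold higher than untreated LNCaP. Thrombomodulin is best known from endothelium, so markers of other cells were read beside it. Of 4 endothelial markers, PECAM1 read 147 units in untreated PC3 and 389 with ATO. CDH5 read 235 units in untreated PC3 and 42.7 in untreated LNCaP, and was not well above background with ATO in either line. TEK and KDR were not well above background on any array. The intensities of the 4 endothelial markers summed to 62.0, 85.7, 406 and 469 units in untreated LNCaP, ATO LNCaP, untreated PC3 and ATO PC3. These sums include readings not well above background. In PC3 they also join opposite changes, with PECAM1 2.73-fold higher and CDH5 at least 4.22-fold lower with ATO. The part of these markers in the THBD result was not tested. Of 3 fibroblast markers, COL1A1 was above background in both lines (111 and 121 units in PC3, 76.1 and 85.5 in LNCaP). Of 3 leukocyte markers, CD68 was above background in both lines (829 and 1227 units in PC3, 168 and 182 in LNCaP). PTPRC read 215 units in untreated LNCaP and was not well above background elsewhere.

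THBS1 encodes thrombospondin-1, a matrix glycoprotein of platelets and many cells that binds fibrinogen and plasminogen. The brighter probe read 341 ± 34.8 units in untreated LNCaP, 387 ± 40.7 in ATO LNCaP, 21802 ± 2180 in untreated PC3 and 9063 ± 906 in ATO PC3. Both PC3 arrays were far above both LNCaP arrays, and ATO PC3 was below untreated PC3. The log2 ratio was -1.22 in PC3 (array error 0.20; 2.33-fold lower) and 0.08 in LNCaP (array error 0.21), opposite in sign, with the difference between lines not tested. The second probe, which was not well above background in LNCaP (16.2 and 12.97 units), read 637 ± 65.0 units in untreated PC3 and 343 ± 36.8 in ATO PC3. It gave -0.85 (array error 0.21; 1.80-fold lower), a smaller ratio in the same direction. Untreated PC3 exceeded untreated LNCaP 54.1-fold on the brighter probe and at least 19.7-fold on the second.

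PLAU, the urokinase gene, had the smallest array error of the 9, with 10 spots per array of its brighter probe. That error is an SD over spots for PLAU and PLAT and the scanner's estimate for the other genes, so the errors are not alike. PLAU read 39664 ± 1439 units (SD over 10 spots) in untreated PC3 and 19116 ± 749 in ATO PC3. The spots ran from 36237 to 41615 units on the untreated array and from 17989 to 20189 on the ATO array, so the spots of the arrays did not overlap. They are copies of 1 probe within an array and no replicates of the treatment. The spots of LNCaP averaged 6.76 and 12.8 units, and 0 of 10 were well above background on either array. The log2 ratio in PC3 was -1.005 (array error 0.08), or 2.01-fold lower, and untreated PC3 was at least 1225-fold higher than untreated LNCaP. Its second probe read 11941 ± 1194 and 5348 ± 535 units in untreated and ATO PC3, and 5.86 and 11.2 units, not well above background, in LNCaP. That probe gave -1.11 (array error 0.20; 2.16-fold lower), and it too lay in a bright local background on the ATO PC3 array.

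PLAUR, which encodes the receptor that holds urokinase at the cell surface, read 3557 ± 356 units in untreated PC3 and 4115 ± 412 in ATO PC3. In LNCaP it read 36.1 ± 6.61 units untreated, well above background, and 43.9 with ATO, not well above it. PC3 was bright on both arrays and LNCaP near background on both. The log2 ratio in PC3 was 0.26 (array error 0.20), within 1.5-fold, while the bound for LNCaP was below 1 and gave no fold. Untreated PC3 was 83.2-fold higher than untreated LNCaP. Receptor and ligand thus had different ratios in PC3, 0.26 for PLAUR and -1.005 for PLAU.

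PLAT, the gene of tissue plasminogen activator, was also printed in 10 spots. It read 6198 ± 445 units (SD over 10 spots) in untreated PC3 and 3458 ± 287 in ATO PC3, with spots from 5493 to 6691 and from 2865 to 3903 units. As for PLAU, no spot of the ATO array reached the lowest spot of the untreated one, and again the spots are copies within an array. LNCaP averaged 8.65 and 11.8 units, with 0 of 10 spots well above background on either array. The log2 ratio in PC3 was -0.79 (array error 0.16), or 1.73-fold lower, and untreated PC3 was at least 191-fold higher than untreated LNCaP.

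SERPINE2 read 809 ± 81.9 units in untreated PC3, 972 ± 97.9 in ATO PC3, 90.9 ± 10.9 in untreated LNCaP and 113 ± 16.8 in ATO LNCaP. Each line was slightly brighter with ATO, and the PC3 arrays were brighter than the LNCaP arrays. The log2 ratios were 0.31 in PC3 (array error 0.21) and 0.22 in LNCaP (array error 0.28), both within 1.5-fold, and untreated PC3 was 7.52-fold higher than untreated LNCaP. Because RNA was taken from whole cultures, fewer cells that express a gene and less RNA per cell cannot be told apart for any of these genes.

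**Figure D2:**
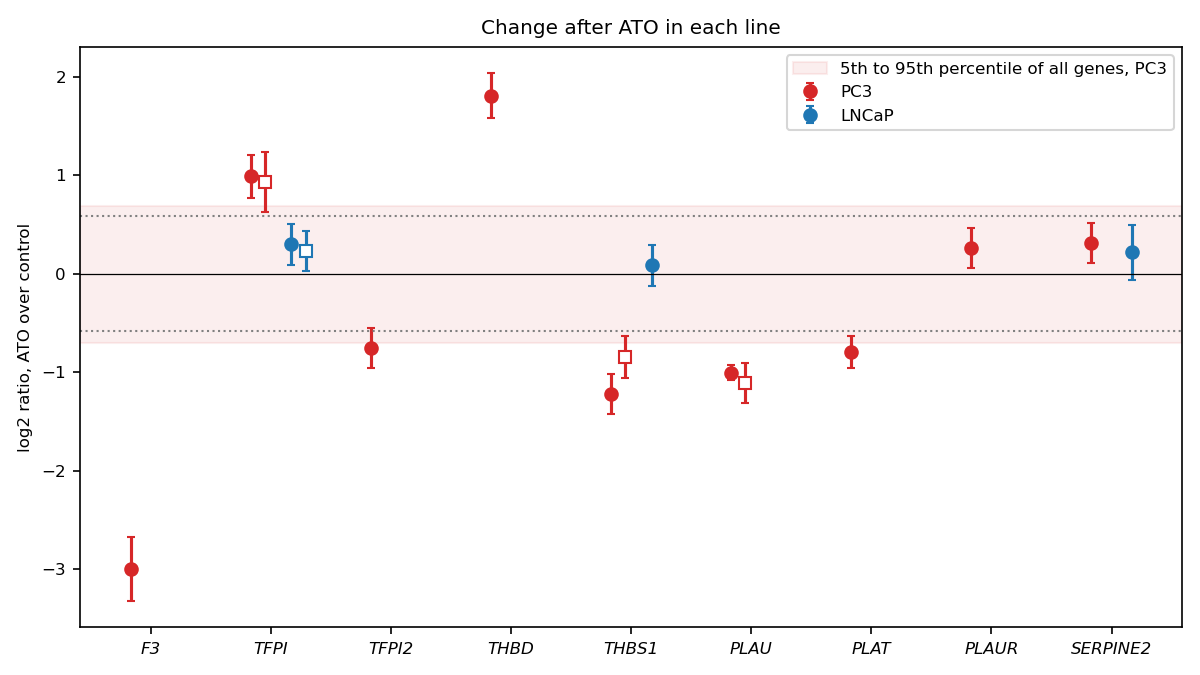
Log2 ratio of ATO over control for each gene in PC3 (red) and LNCaP (blue), filled for the brighter probe and open squares for the second probe, with bars for the array error, dotted lines at 1.5-fold and a band from the 5th to the 95th percentile of all PC3 genes. F3 lies lowest at -3.00 and THBD highest at 1.81, both in PC3.

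All 9 genes were well above background on both PC3 arrays, and their median log2 ratio there was -0.76, against 0.01 for all 12513 such genes. By role, the starter of coagulation (F3) was lower. Of the inhibitors and regulators, TFPI and THBD were higher, TFPI2 was lower and SERPINE2 was within 1.5-fold. Both plasminogen activators, PLAU and PLAT, were lower, the urokinase receptor PLAUR was within 1.5-fold, and the matrix glycoprotein THBS1 was lower. In LNCaP, TFPI, THBS1 and SERPINE2, well above background on both arrays, had a median of 0.22, against 0.01 for all 12236 such genes.

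**Figure D3:**
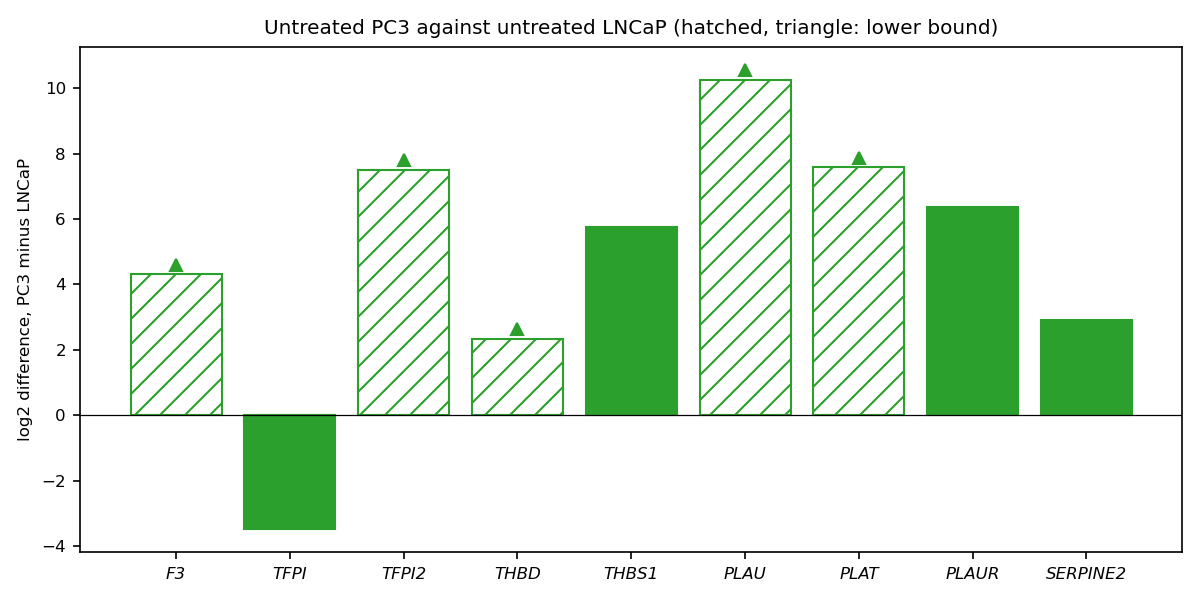
Fold difference between the untreated arrays (log2, PC3 over LNCaP) for each gene, with hatched bars and triangles marking lower bounds where LNCaP was not well above background. The 8 genes above 0 run from THBD to PLAU, 5 of them as bounds that cannot be ranked, and TFPI alone lies below 0.

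Of the 8 genes higher in PC3, PLAUR, THBS1 and SERPINE2 were well above background on both untreated arrays, and the other 5 have lower bounds only, which depend on the background correction. With normexp, the log2 difference was 8.635 for PLAU in place of 10.26, 6.01 for PLAT in place of 7.58, 6.11 for TFPI2 in place of 7.515, 2.90 for F3 in place of 4.31 and 1.28 for THBD in place of 2.34. That of PLAUR, whose LNCaP intensity lay near background, was 4.78 in place of 6.38, and that of SERPINE2 was 2.003 in place of 2.91. All 8 stayed over 2-fold higher in PC3 under each alternative. The THBD bound exceeded its ATO ratio in PC3 under the main scaling, but not at the 50th percentile (1.90 against 2.00) or with normexp (1.28 against 1.53). Being a lower bound, it does not tell in those settings whether the line difference or the ATO ratio is larger. For TFPI, both probes gave the same order, with 11.2-fold and 9.73-fold higher intensity in LNCaP. For TFPI and the 5 genes that were lower after ATO, the ATO PC3 array lay nearer to untreated LNCaP than the untreated PC3 array did. For THBD it lay farther, as it did for PLAUR and SERPINE2, whose ATO ratios were within 1.5-fold. This order follows from the signs of the ratios above and adds no separate result, since both comparisons share the single untreated PC3 array. The LNCaP levels of F3, TFPI2, THBD, PLAU and PLAT were not well above background.

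The treatment was also fitted over all 4 arrays with limma, taking cell line as a block, which treats the lines as replicates of the treatment and leaves 1 residual degree of freedom. Of 11902 genes tested, 0 passed an adjusted p of 0.05 (0%), 532 had an unadjusted p under 0.05, and the smallest adjusted p was 0.762. Genes were tested where both control arrays or both ATO arrays were well above background. This kept 4 members, TFPI, THBS1, PLAUR and SERPINE2, and limma gave each an adjusted p of 0.762. F3, TFPI2, THBD, PLAU and PLAT, not well above background in LNCaP, were left out by that filter. Without it, which admits values under background, all 9 members were tested and 0 passed. TFPI had a mean log2 ratio of 0.64 (SE 0.22) and limma's unadjusted p of 0.0523, the lowest of the 4. THBS1 had a mean of -0.57 (SE 0.37), with its lines opposite in sign.

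Other genes of coagulation and plasminogen activation were read from a list of 53 names, of which 52 were on the array and 24 were well above background on at least 1 array. In PC3, 20 gave a value, 3 were higher and 1 lower by over 1.5-fold, where 8.2% and 10.3% of all genes were, and the median of the 19 well above background on both arrays was 0.04. In LNCaP, 18 gave a value, and 0 passed 1.5-fold (4.75% of all genes), with a median of 0.07 over the 16 well above background on both arrays. The median of all genes was 0.01 in each line.

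Among the inhibitors, SERPIND1 (heparin cofactor II, which blocks thrombin) read 625 units in untreated PC3 and 1382 with ATO, a log2 ratio of 1.19, and was not well above background in LNCaP. SERPINB8, a serpin of the same clade as the urokinase inhibitor PAI-2, read 530 and 783 units, a ratio of 0.61 that fell under 1.5-fold with spike-in scaling (0.53) and normexp (0.58). It too was not well above background in LNCaP.

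Of the receptors that clear these proteases and their inhibitors from the surface, LRP1 read 158 units in untreated PC3 and 291 with ATO, a log2 ratio of 0.93. The median over its 2 probes was 0.39, under 1.5-fold, so the second probe had a negative value and differed in sign. Among coagulation factors, F8 was at least 2.34-fold lower in PC3, from 167 units to 69.0, not well above background. It is named because it is the single lower gene of the list, and was chosen after its value was seen.

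The other genes of the list lay within 1.5-fold in both lines or gave no value. They include PROCR, the protein C receptor that works with thrombomodulin, at -0.24 in PC3, and PROC and PROS1, protein C and its cofactor protein S, at 0.36 and 0.21. The thrombin receptor F2R was at -0.51 and F2RL1 at 0.04 in PC3. ANXA2 and S100A10, which together form a receptor for plasminogen and PLAT, were at 0.06 and 0.27 in PC3. These genes were named after their values were seen, for their ties to THBD and PLAT.

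**Figure D4:**
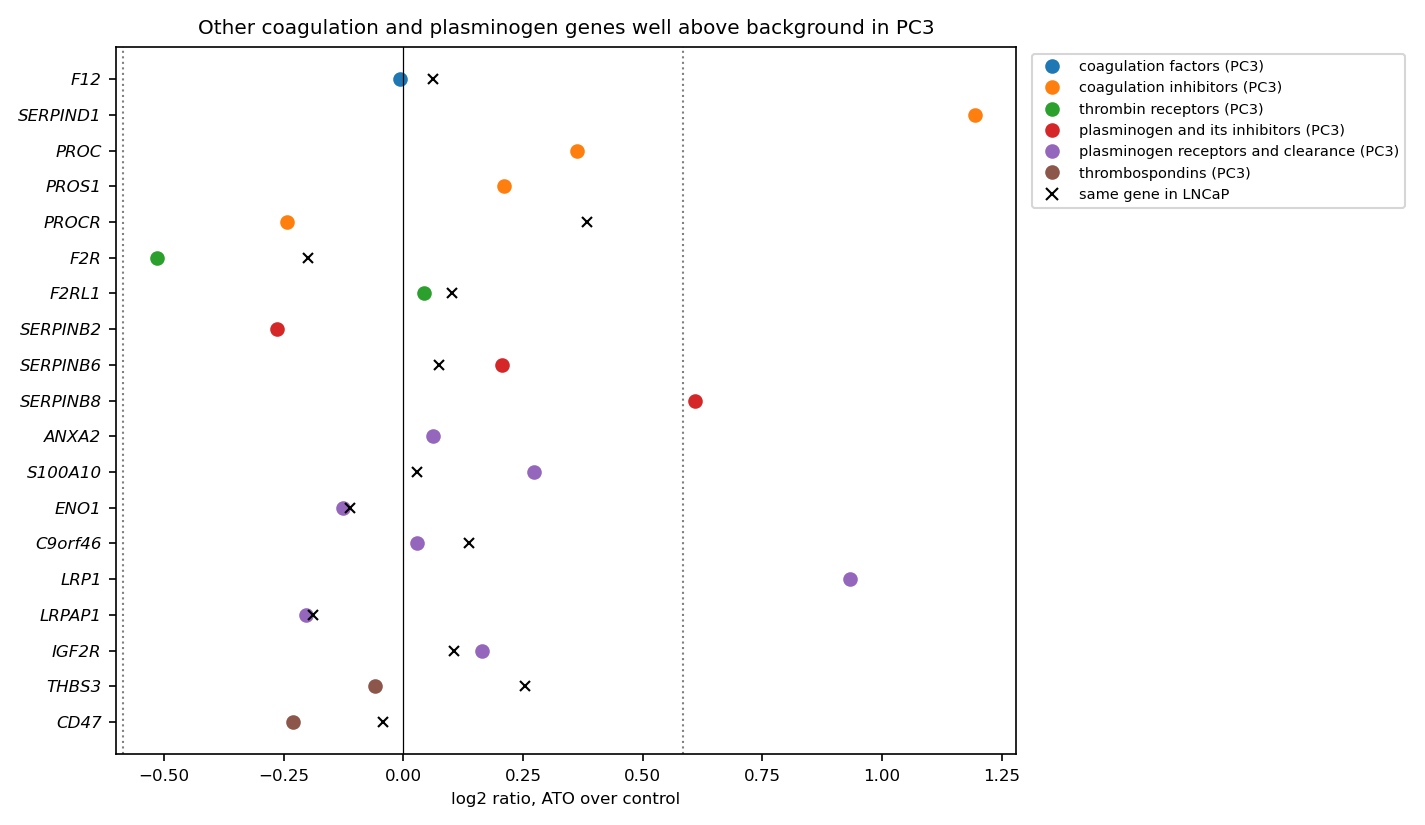
Log2 ratio of ATO over control for the 19 listed coagulation and plasminogen genes well above background on both PC3 arrays, as PC3 dots coloured by functional group and LNCaP crosses where both LNCaP arrays were above background, with dotted lines at 1.5-fold. SERPIND1, LRP1 and SERPINB8 lie past 1.5-fold in PC3, and no dot lies past the lower line.

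The genes whose pattern over the 4 arrays was most like that of F3 were sought among 1068 genes with the same calls, by Euclidean distance of log2 level from the mean of the 4 arrays. CTGF, a matricellular growth factor, was nearest at a distance of 0.32, and read 433 units in untreated PC3 and 66.6 with ATO (-2.65). BDNF, a neurotrophin, lay at 0.78 (357 and 86.9 units; -1.99), and S1PR1, a receptor for sphingosine 1-phosphate, at 0.79 (262 and 61.0 units; -2.05). None was well above background in LNCaP. The measure rests on 4 arrays, which count alike. It takes the LNCaP readings at face value although they are not well above background.

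**Figure D5:**
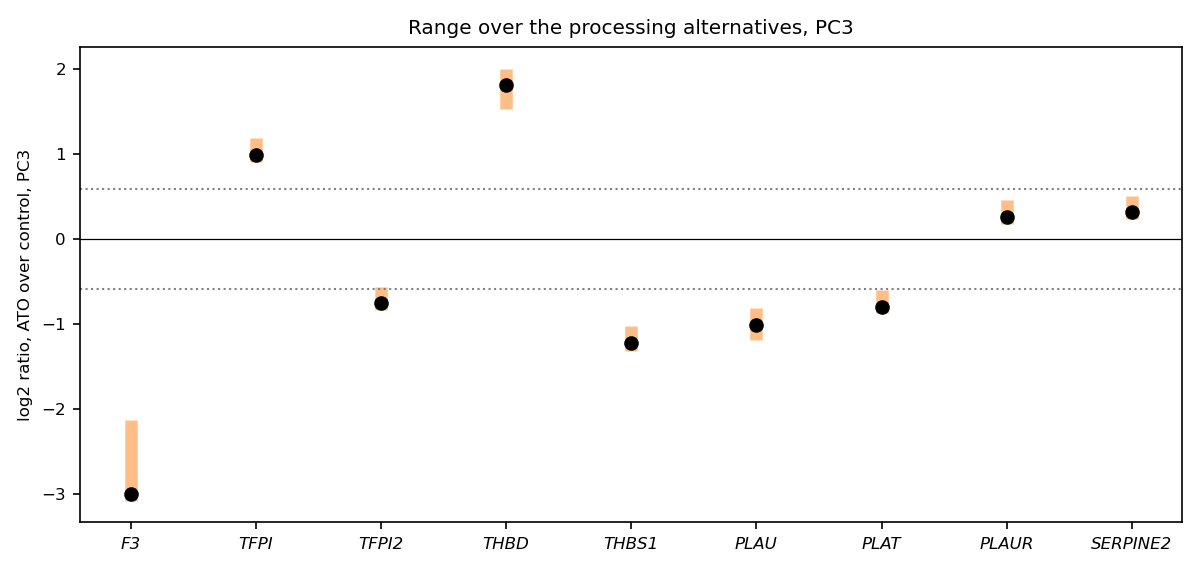
Log2 ratio of ATO over control in PC3 for each of the 9 genes, with a black dot for the value reported above and an orange bar for its range over the processing alternatives. No bar crosses 0, and the widest is that of F3, from -3.08 to -2.12.

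Over the processing alternatives, no member changed sign in PC3. F3 ranged from -3.08 to -2.12, the weaker end coming from normexp background correction. THBD ranged from 1.53 to 2.00, TFPI from 0.91 to 1.18, THBS1 from -1.32 to -1.02, PLAU from -1.19 to -0.81 and PLAT from -0.87 to -0.60. TFPI2 ranged from -0.83 to -0.56, and its upper end lies under 1.5-fold. The genes within 1.5-fold, PLAUR and SERPINE2, ranged from 0.18 to 0.45 and from 0.23 to 0.51.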

How the data were processed

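RNA abundance was measured on 4 Agilent 1-colour arrays, 1 per group. The deposited scanner files hold spot intensity on a linear scale from Agilent Feature Extraction 9.5.3.1, background-subtracted and detrended per the file headers, with yes or no calls (other) for spots well above background and outliers. The deposited table holds a ratio of each probe's intensity to its array's 75th percentile, with a floor of 0.03. Only probes with a deposited ratio over 1 were compared (8512 to 8516 per array), while the median deposited ratio was 0.07 to 0.09. Between 99.2% and 99.9% of the compared values lay within 2% of the ratio computed here. Dimmer probes were not compared.

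Outlier spots were left out here, processed intensities were taken to log2, repeated spots were averaged, and each array was centred on its 75th percentile. A probe was well above background where over 50% of its unflagged spots were. The brightest probe stood for a gene. Differences past 1.5-fold (2-fold between lines) were counted. Where only 1 array was well above background, the dim side took whichever was higher, its own reading or the faintest signal that its array called well above background, giving "at least N-fold". limma 3.58.1 (R 4.3.3) was run over both lines with Benjamini-Hochberg adjustment, and the other steps used python 3.11.15, numpy 2.4.6 and pandas 2.3.3. The fold calls and the limma fit were tested on simulated data. For limma these had the same change in both lines, so that test does not cover lines that respond differently.

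Named genes were the 9 members, pathway genes past 1.5-fold and above background on both arrays of a line, the 3 genes nearest to F3, and line and other cell type markers (endothelial, fibroblast, leukocyte). A few other pathway genes, F8 among them, were named after their values were seen. The members and lists were chosen with earlier results of these data known, and some listed genes are not reported here. Alternatives changed the scaling, background correction, outlier spots, probe of a gene, filters, table and threshold. Probe positions are on hg18, as the files give them, and promoters come from RefSeq (GRCh38.p14), where 9 of 9 members matched a current symbol. Intensity has no count behind it, so precision is limited by the number of arrays.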

Additional observations from a re-analysis of the deposited data

Results flagged for a closer look

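THBS1 had ratios of opposite sign in the lines: its log2 ratio of ATO over control was -1.22 in PC3 and 0.08 in LNCaP, with 1 array per group. The difference between the lines was not tested. The LNCaP ratio is smaller than its array error of 0.21, so it shows no change there beyond that error.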

How the results depend on the processing

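With 1 array per group, leaving out a replicate was not possible. The limma fit already pairs the arrays by cell line. No paired analysis by replicate number was possible because the labels give none. Over 25 ratios of single genes and 224 alternative values, 0 reversed and 60 moved by more than the technical SD. Scaling to the 50th percentile moved the median of all PC3 genes from 0.01 to 0.21, and spike-in scaling moved it to -0.07 in PC3 and 0.21 in LNCaP. Between the untreated lines these scalings moved it from -0.12 to -0.56 and 0.40. At 50th percentile scaling, TFPI2 fell under 1.5-fold, leaving 6 genes in PC3. Leaving out bright local backgrounds removed TFPI, leaving 6 of 8. At a 2-fold threshold, 4 of the 9 genes counted in PC3 (THBD higher; F3, THBS1 and PLAU lower) and 2 pathway genes in PC3. With no filter on dim probes, which admits values under background, the counts were 3 members in LNCaP (F3, TFPI2 and PLAU, all higher), 10 pathway genes in PC3 and 23 in LNCaP. Spike-in scaling gave 1 pathway gene in LNCaP, and normexp gave 2 in PC3, both higher. limma called 5 genes at the 50th percentile, all lower, and 116 with spike-in scaling, where the prior degrees of freedom were infinite, with 0 members among either, and the cause was not tested.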
